A study of Arabidopsis thaliana with 24 samples.

Results

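Alpha-expansins are small secreted proteins of plant cell walls. They loosen the wall at acid pH, without cutting its polymers, by letting cellulose and the glycans bound to it slide past each other, and turgor can then stretch the cell. Growing tissue is known to carry several of them at once, and the acid wall they need is made by proton pumps of the plasma membrane. The results below follow 10 alpha-expansin genes of Arabidopsis thaliana in leaves treated with flg22, a peptide of bacterial flagellin that plants sense through the receptor FLS2 and that is known to slow growth.

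The 10 genes are EXPA1, EXPA3, EXPA4, EXPA5, EXPA6, EXPA8, EXPA10, EXPA11, EXPA15 and EXPA16, a list of genes fixed by locus. They are 10 of 26 alpha-expansin genes, of which 23 have a probe set on the array, and each of the 10 is read by 1 probe set of the 22810 in the table. The genes were chosen with earlier results of these same arrays in view, and no threshold is recorded. Their intensities and their flg22-minus-water changes are therefore treated as the values they were selected on, and are given as a description. Counts of them past a threshold stand beside the share of all probe sets, and nothing is read from those counts.

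The study compared leaves of 6-week-old plants of 4 genotypes: wild type Col-0, the knockout erf104-ko, the knockout mpk6-ko, and 35S::ERF104, in which a constitutive viral promoter drives the gene. ERF104 is a transcription factor of the ethylene response factor family, and MPK6 is a mitogen-activated protein kinase that is activated by flg22 and phosphorylates ERF104. Leaves were infiltrated with 1 µM flg22 or with water and harvested 4 h later, and all plants grew in short days of 8 h light. Each of the 8 groups has 3 Affymetrix arrays, and the number of arrays limits the precision. The sources used here do not say whether the 3 arrays come from separate plants, so p-values measure the spread between arrays, which may be technical.

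One array, erf104-ko flg22 replicate 2, stood apart and was left out, so erf104-ko flg22 has 2 arrays throughout and 23 of 24 arrays were used. Its log2 intensities correlated with those of the other arrays at 0.223 to 0.250 only, and the authors' mean for its group equals the mean of the other 2 arrays for 86.1% of probe sets. The Col-0 arrays were noisier than the others. Correlations between arrays of a group were 0.614 to 0.734 in Col-0 water and 0.730 to 0.836 in Col-0 flg22, against 0.845 to 0.930 in the other groups. Probe sets called present on every array of a group numbered from 2386 in Col-0 water to 12231 in 35S::ERF104 flg22. FRK1, a receptor kinase gene used as a marker of the flg22 response, was higher under flg22 in all 4 genotypes, by 3.20 to 5.18 on the log2 scale. ERF104 itself was at least 95.01-fold higher in 35S::ERF104 than in Col-0 under water (adjusted p 7.75e-10, limma). In erf104-ko under water it read 51.5, 18.6 and 29.7, against 61.2, 221 and 284 in Col-0, but it was called absent in both groups, so no fold is given. MPK6 read 316, 263 and 465 in mpk6-ko under water against 1163, 1526 and 724 in Col-0, below every Col-0 array but still called present. A probe set outside a disrupted part of a gene would check nothing.

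All 10 genes had a present or marginal call on at least 1 array of at least 1 group. EXPA10 was the only one called present on every array of all 8 groups, and 5 of the 10 were called so in at least 6 groups. Of the other 13 alpha-expansins with a probe set, 11 were called absent in all 8 groups, among them EXPA7 and EXPA18, which are known from root hairs. The remaining 2, EXPA9 and EXPA13, were detected but are not on the list. EXPA13 read 274 to 737 over the arrays used and was called present on every array of 6 groups, and EXPA9 was called so in 3 groups, among them 35S::ERF104 water at 86.2 to 154. The calls followed the noise of the arrays. Under water, 1 of the 10 genes was called present on all arrays in Col-0, and under flg22 2 were, against 5 to 8 genes in the other 6 groups.

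EXPA6 (AT2G28950) and EXPA8 (AT2G40610) were lower under flg22 in all 4 genotypes, with no flg22 array as high as any water array of the same genotype. Of all 22746 probe sets tested, 2.48% showed this pattern. EXPA6 read 1476, 944 and 1335 in Col-0 water and 392, 393 and 450 in Col-0 flg22. In erf104-ko it read 837, 959 and 738 under water and 452 and 434 under flg22. In mpk6-ko the values were 987, 1182 and 824 under water and 313, 573 and 474 under flg22. In 35S::ERF104 they were 743, 844 and 1015 under water and 251, 324 and 230 under flg22. Every water array of any genotype thus read 738 or more for EXPA6, and every flg22 array 573 or less. The log2 changes (± SE of the fit) were -1.58 ± 0.44 in Col-0, -0.92 ± 0.21 in erf104-ko, -1.17 ± 0.31 in mpk6-ko and -1.70 ± 0.18 in 35S::ERF104. These correspond to levels 1.90-fold to 3.24-fold lower. Between the group means, the 4 water groups overlapped with their neighbours in rank, as did the flg22 groups of erf104-ko, mpk6-ko and Col-0, while 35S::ERF104 flg22, the lowest, was apart from Col-0 flg22 next to it in rank but overlapped with mpk6-ko flg22.

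**Figure D1:**
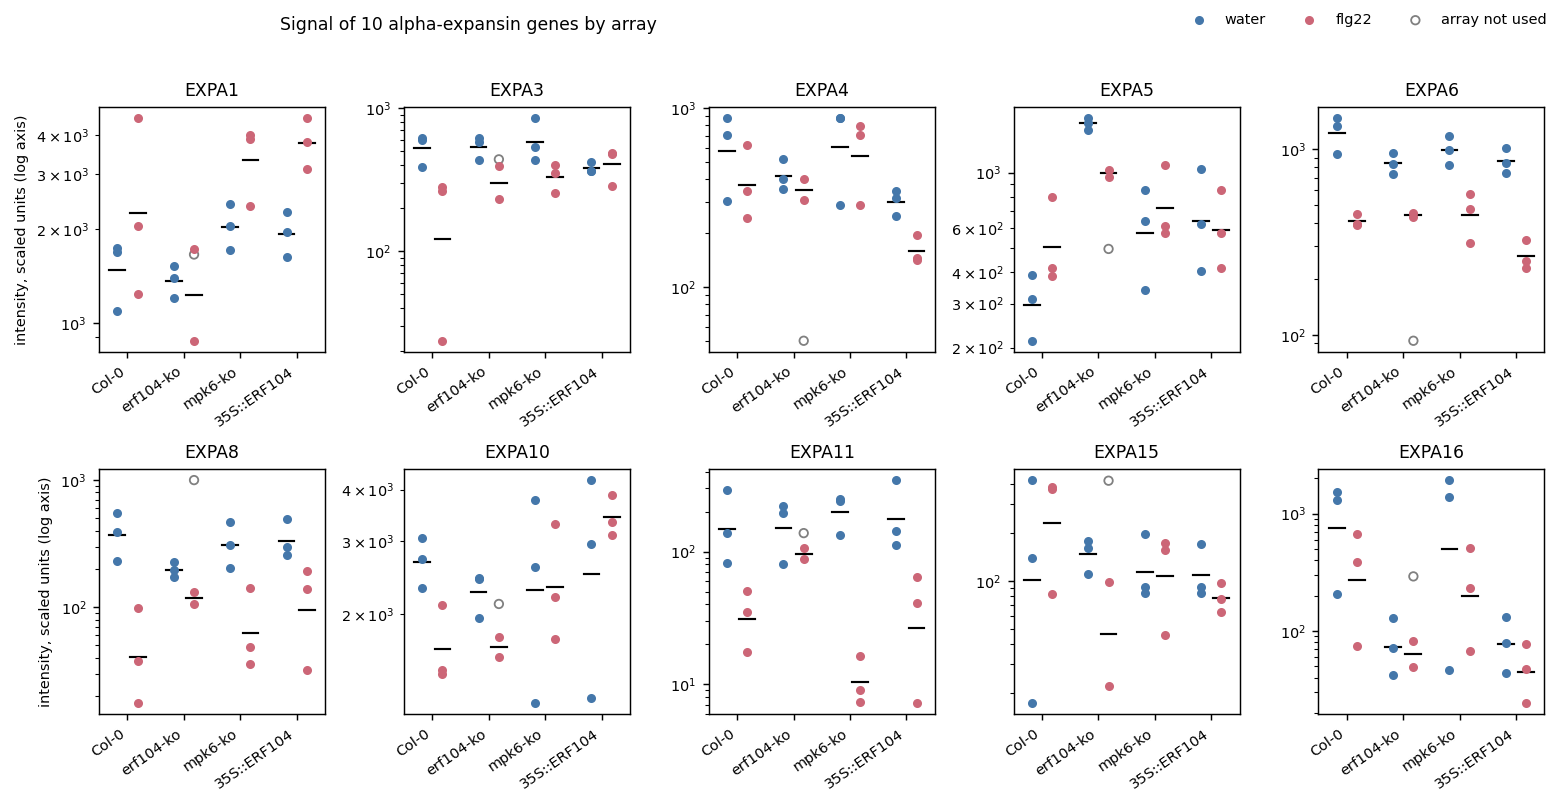
Intensity of each of the 10 genes on every array, in the authors' scaled units on a log axis, by genotype and treatment; black bars are means of the log2 values and the open circle is the erf104-ko flg22 array that was not used. EXPA6 stays at 738 or more on every water array and at 573 or less on every flg22 array used.

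EXPA8 read 556, 393 and 229 in Col-0 water and 37.6, 17.7 and 98.5 in Col-0 flg22. In erf104-ko the water arrays read 172, 197 and 228 and the flg22 arrays 131 and 107. In mpk6-ko the values were 309, 466 and 205 under water and 48.3, 35.6 and 141 under flg22. In 35S::ERF104 they were 296, 256 and 492 under water and 192, 139 and 31.8 under flg22. The flg22 arrays lay below the water arrays in each genotype. Fitted log2 changes were -3.19 ± 1.09 in Col-0, -2.31 ± 0.65 in mpk6-ko and -1.82 ± 0.57 in 35S::ERF104. Without the array at 31.8 the change in 35S::ERF104 was -1.03. The lowest signal of a probe set called present on every array of the group was 278 and 113 on Col-0 flg22 replicates 1 and 2. It was 111 and 69.0 on mpk6-ko flg22 replicates 1 and 2, and 39.1 on 35S::ERF104 flg22 replicate 3. EXPA8 read below it on each of these arrays, so the changes are not read as measured folds and genotypes are not ranked by them. In erf104-ko flg22 EXPA8 was called absent on every array the authors used, so no fold is given there.

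EXPA11 (AT1G20190) was called absent on every flg22 array of all 4 genotypes, and also on the Col-0 water arrays. It read 291, 82.1 and 137 in Col-0 water and 50.02, 17.4 and 34.8 in Col-0 flg22, for which no fold is given. In mpk6-ko the water arrays read 238, 250 and 134 and the flg22 arrays 16.4, 7.41 and 9.06. In 35S::ERF104 the values were 112, 143 and 345 under water and 7.25, 64.0 and 40.7 under flg22. In these 3 genotypes no flg22 array reached a water array. In erf104-ko the water arrays read 80.5, 219 and 196 and the flg22 arrays 87.1 and 106, and the groups overlapped. The level under flg22 was at least 3.23-fold lower in mpk6-ko and at least 4.03-fold lower in 35S::ERF104. Each bound sets the water mean against, per array, the higher of the gene's own signal and the lowest signal of a probe set called present. In 35S::ERF104 the gene's own signal was the higher on the flg22 arrays at 64.0 and 40.7. In erf104-ko no fold is given.

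EXPA3 (AT2G37640) was lower under flg22 without overlap in Col-0, erf104-ko and mpk6-ko, and overlapped in 35S::ERF104. It read 595, 619 and 388 in Col-0 water and 23.7, 283 and 264 in Col-0 flg22. The first of those flg22 arrays sets much of the change: the log2 change in Col-0 was -2.11 ± 0.84 with it and -0.94 without it. In erf104-ko the values were 618, 577 and 431 under water and 393 and 232 under flg22, a log2 change of -0.83 ± 0.29. In mpk6-ko they were 534, 854 and 433 under water and 352, 400 and 254 under flg22, a log2 change of -0.82 ± 0.35. In 35S::ERF104 the water arrays read 365, 417 and 364 and the flg22 arrays 477, 489 and 284, a log2 change of 0.08 ± 0.22. Its neighbours in the ranking of the 8 group means overlapped in 7 of 7 cases.

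EXPA4 (AT2G39700) and EXPA16 (AT3G55500) had negative log2 changes in all 4 genotypes, with much larger differences between arrays of a group. EXPA4 read 704, 881 and 302 in Col-0 water and 343, 619 and 242 in Col-0 flg22. In mpk6-ko it read 875, 875 and 288 under water and 705, 792 and 285 under flg22. In both genotypes and under both treatments replicate 3 was the lowest, and the groups overlapped. In erf104-ko the values were 521, 399 and 355 under water and 308 and 399 under flg22. In 35S::ERF104 they were 313, 344 and 250 under water and 145, 195 and 142 under flg22, without overlap. The log2 change was -0.91 ± 0.24 there, against -0.16 to -0.62 in the other 3 genotypes. EXPA16 read 1315, 1532 and 207 in Col-0 water and 676, 389 and 74.4 in Col-0 flg22. In mpk6-ko it read 1928, 1395 and 46.2 under water and 513, 231 and 67.4 under flg22. Here too replicate 3 was the lowest in each of the 4 groups, and water and flg22 arrays overlapped. The log2 change was -1.47 ± 0.74 in Col-0 and -1.32 ± 1.15 in mpk6-ko. Leaving out 1 array moved it between -2.40 and -0.54 in Col-0 and between -3.04 and -0.34 in mpk6-ko. In erf104-ko and 35S::ERF104 EXPA16 was called absent under flg22. In erf104-ko it read 128, 42.5 and 71.8 under water and 49.7 and 82.3 under flg22. In 35S::ERF104 it read 132, 78.5 and 44.0 under water and 24.4, 47.9 and 76.9 under flg22. The arrays overlapped in both, and no fold is given.

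EXPA10 (AT1G26770), which is known to promote leaf growth in Arabidopsis, had the steadiest detection of the 10. It read 3061, 2305 and 2723 in Col-0 water and 1433, 1461 and 2106 in Col-0 flg22, with a log2 change of -0.71 ± 0.36. In erf104-ko the values were 2447, 2435 and 1949 under water and 1759 and 1570 under flg22, with a log2 change of -0.45 ± 0.20. The flg22 arrays lay below the water arrays in both. In mpk6-ko they overlapped, at 3780, 2600 and 1216 under water and 2192, 3309 and 1740 under flg22 (log2 change 0.03 ± 0.39). In 35S::ERF104 they overlapped too, at 2954, 4219 and 1253 under water and 3348, 3888 and 3112 under flg22 (log2 change 0.46 ± 0.34).

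EXPA1 (AT1G69530), which is known to take part in the opening of stomata in Arabidopsis, had a negative change in erf104-ko only. It read 1095, 1745 and 1685 in Col-0 water and 1237, 2051 and 4544 in Col-0 flg22, with overlap. In mpk6-ko it read 2054, 2407 and 1711 under water and 2376, 4011 and 3875 under flg22, again with overlap. In 35S::ERF104 the water arrays read 2273, 1624 and 1962 and the flg22 arrays 3804, 4541 and 3114, and all flg22 arrays were higher. The log2 change was 0.96 ± 0.17 in 35S::ERF104, 0.71 ± 0.28 in mpk6-ko and 0.61 ± 0.43 in Col-0. In erf104-ko it was -0.15 ± 0.27, from 1522, 1207 and 1390 under water and 1727 and 877 under flg22.

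EXPA5 (AT3G29030), which is known to be induced by brassinosteroid hormones, and EXPA15 (AT2G03090) had no common direction. EXPA5 read 390, 314 and 213 in Col-0 water and 386, 416 and 798 in Col-0 flg22, with a log2 change of 0.77 ± 0.57 and overlap. In erf104-ko it read 1580, 1655 and 1486 under water and 964 and 1026 under flg22, with a log2 change of -0.66 ± 0.18 and no overlap. In mpk6-ko and 35S::ERF104 the arrays overlapped, with log2 changes of 0.34 ± 0.38 and -0.12 ± 0.33. EXPA15 read 17.2, 138 and 426 in Col-0 water and 372, 388 and 82.4 in Col-0 flg22. Its log2 change in Col-0 was 1.19 ± 1.11, and -0.09 without the water array at 17.2. In erf104-ko EXPA15 read 161, 109 and 177 under water and 98.8 and 22.1 under flg22, without overlap and with a log2 change of -1.65 ± 0.67. In 35S::ERF104 its arrays overlapped, with a log2 change of -0.48 ± 0.41, and in mpk6-ko it was called absent under flg22.

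Counted over the 10 genes, flg22 arrays lay below all water arrays for 5 genes in Col-0 (10.9% of all probe sets), 6 in erf104-ko (22.2%), 4 in mpk6-ko (10.2%) and 4 in 35S::ERF104 (19.7%). They lay above for 1 gene in 35S::ERF104 (14.1%), and for 0 in Col-0 (6.84%), erf104-ko (17.1%) and mpk6-ko (9.46%). The median log2 change of the 10 was -1.09 in Col-0, -0.66 in erf104-ko, -0.49 in mpk6-ko and -0.63 in 35S::ERF104, beside -0.39, -0.08, 0.01 and -0.11 over all probe sets. These medians include fitted values of genes called absent. In limma's fit across all probe sets with Benjamini-Hochberg adjustment, genes past an adjusted p of 0.05 numbered 0 in Col-0 (1.86% of all probe sets, 0.277% in the lower direction, with 3 of the 10 genes at an unadjusted p below 0.05 and 11.9% of all probe sets). In erf104-ko 2 genes were past it in the lower direction (EXPA5 and EXPA6, 5.35%) and in mpk6-ko 1 (EXPA11, 1.55%). In 35S::ERF104 3 were lower (EXPA4, EXPA6 and EXPA11, 10.4%) and 1 higher (EXPA1, 7.98%). The choice of genes used these contrasts, so nothing is read from the counts.

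**Figure D2:**
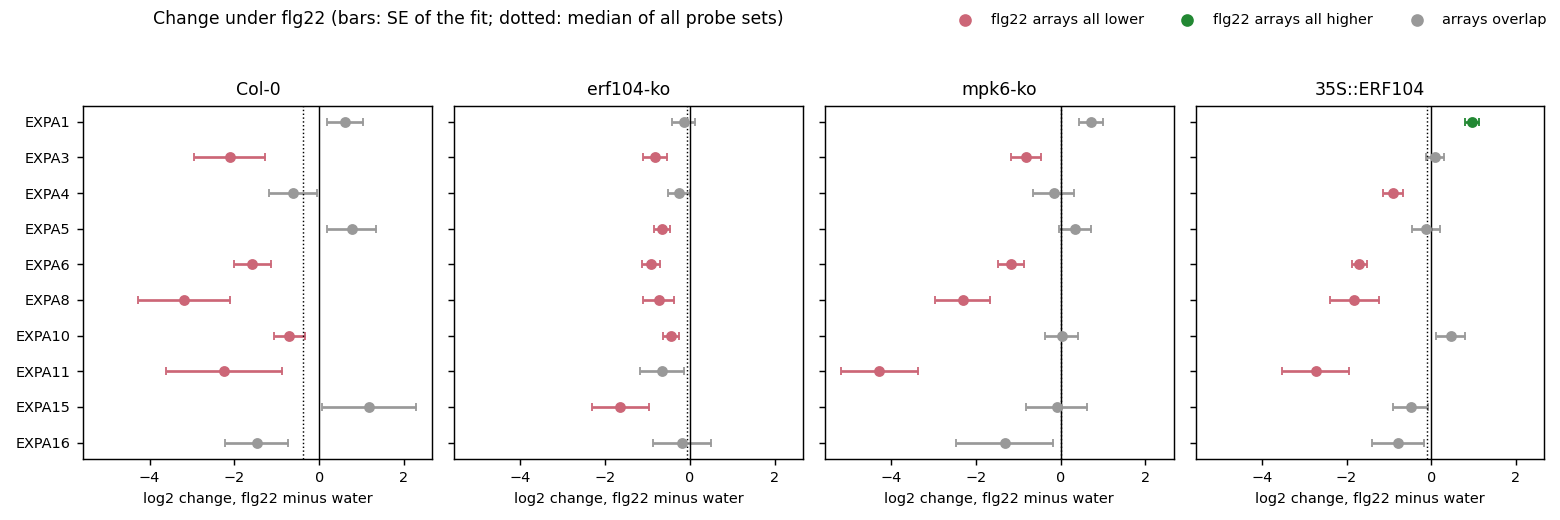
Log2 change of each gene, flg22 minus water, in 4 genotypes, with the SE of the fit; colour shows whether all flg22 arrays were lower, all higher, or overlapped with the water arrays, and the dotted line is the median of all probe sets. EXPA6 and EXPA8 lie to the left in every panel without overlap, and EXPA1 is above 0 without overlap in 35S::ERF104. For genes called absent in a group the fitted value is not a measured fold.

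The scale of the Col-0 arrays bears on all values that use them. Each array was scaled to the same trimmed mean, near 500.0, but the array medians ran from 133 to 302, and the median probe set changed by -0.39 under flg22 in Col-0. Among the 5958 probe sets with no absent call in at least 1 of the 2 Col-0 groups, the median change was 0.17. With each array centred on its own median, the 10 genes had a median change of -0.72 in Col-0, -0.54 in erf104-ko, -0.49 in mpk6-ko and -0.51 in 35S::ERF104. The signs stayed as given above under that scaling, except for EXPA5 in 35S::ERF104, which turned from -0.12 to 0.00484.

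Markers of other leaf cell types were read beside these changes. In whole leaves, fewer cells of a type and less RNA per cell cannot be told apart. The summed signal of 7 guard cell genes was 1915 to 3418 in Col-0 water and 980 to 1548 in Col-0 flg22, and 1316 to 1599 and 1023 to 1036 in 35S::ERF104. In both genotypes the sums on the flg22 arrays lay below those on the water arrays, whereas the ranges overlapped in erf104-ko and mpk6-ko. The single genes had no common direction. In Col-0 4 of the 7 had negative log2 changes, while FAMA, MYB60 and HT1 were at 0.31, 0.64 and 0.22. In 35S::ERF104 6 were negative and KAT1 was at 0.16. None of the 7 passed the test under flg22 except OST1, a guard cell kinase gene, in 35S::ERF104, and HT1 was called absent in all 8 groups. The summed signal of RBCS1A and RCA, genes of the photosynthetic carbon cycle in leaf mesophyll, ran from 85880 to 201411 in Col-0 water and from 59276 to 82026 in Col-0 flg22. It was lower without overlap in erf104-ko and 35S::ERF104 as well. The summed signal of the 5 vascular genes overlapped between treatments in every genotype. Single genes of that list did not always overlap. XCP1 was higher in erf104-ko (log2 change 0.35), and APL was lower in erf104-ko (-0.22) and mpk6-ko (-1.25). In 35S::ERF104 XCP2 was lower (-0.56). The trichome genes GL1 and GL2 were called absent in all groups. The part of these shifts in the expansin values was not tested.

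EXPA5 differed between erf104-ko and Col-0 before any flg22. Under water it read 1580, 1655 and 1486 in erf104-ko against 390, 314 and 213 in Col-0. All 3 knockout arrays lay above all Col-0 arrays, and also above all arrays of the other 6 groups. The log2 difference was 2.41 ± 0.39 (95% interval 1.61 to 3.21), a level 5.30-fold higher, with an adjusted p of 0.00404 in limma's fit of all 23 arrays. It was the only 1 of the 10 genes past the threshold in that comparison, in which 2.75% of all probe sets were higher and 3.55% lower. The difference is taken between intensities, which are treated here as values the genes were selected on. The adjusted p does not account for that choice of genes with results known. Because the Col-0 arrays spread more than the rest, the fit was repeated with a weight per group, which left 76 probe sets past the threshold in place of 1434 and gave EXPA5 an adjusted p of 0.0486. Fitting the 2 groups alone gave 0.0287. Over 17 settings, the main fit and the fits without 1 array among them, the adjusted p ran from 0.00218 to 0.212. It was past the threshold in 16, all but the methods' ANOVA with adjustment. The methods' ANOVA without adjustment is not among the 17. These settings refit the same arrays and are not independent support.

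In the other genotypes EXPA5 under water overlapped with or lay nearer to Col-0. It read 341, 643 and 853 in mpk6-ko, a log2 difference of 0.95 ± 0.39 (adjusted p 0.261, limma). It read 405, 624 and 1038 in 35S::ERF104, above every Col-0 array, with a log2 difference of 1.11 ± 0.39 (95% interval 0.31 to 1.91, adjusted p 0.0744). The knockout of ERF104 and the line overexpressing it thus both had positive differences from Col-0. The difference in mean between erf104-ko and 35S::ERF104 was not tested. Their ranges under water, 1486 to 1655 and 405 to 1038, did not overlap.

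EXPA16 showed the opposite arrangement, with less certainty. Under water it read 128, 42.5 and 71.8 in erf104-ko and 132, 78.5 and 44.0 in 35S::ERF104, against 1315, 1532 and 207 in Col-0. All arrays of both genotypes lay below all Col-0 arrays. The log2 differences were -3.35 ± 1.07 (95% interval -5.55 to -1.15, adjusted p 0.0579) and -3.28 ± 1.07 (95% interval -5.48 to -1.08, adjusted p 0.0606), neither past the threshold. With a weight per group the adjusted p was 0.212 and 0.1785. The fit shares an error over all groups. The log2 SD of EXPA16 was 1.61 in Col-0 water and 2.98 in mpk6-ko water. Without the Col-0 array at 207 the log2 differences were -4.28 and -4.21, with adjusted p of 0.0275 and 0.0406 (limma). Without Col-0 water replicate 1 or 2 neither passed. In mpk6-ko EXPA16 read 1928, 1395 and 46.2, and the log2 difference was -0.58 ± 1.07 (adjusted p 0.788). That sign rests on the array at 46.2, since without it the difference was 1.13.

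**Figure D3:**
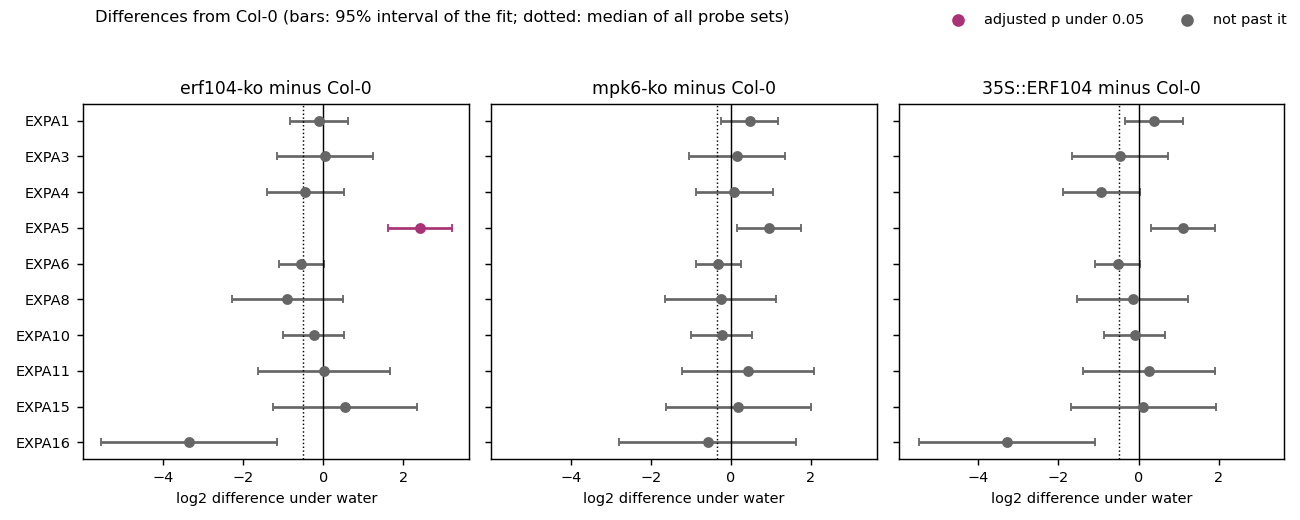
Log2 difference of each gene from Col-0 under water in the 3 other genotypes, with the 95% interval of the fit; the dotted line is the median of all probe sets. EXPA5 in erf104-ko, at 2.41, is the only point past an adjusted p of 0.05, and EXPA16 lies near -3.3 in erf104-ko and 35S::ERF104 with intervals that reach -5.55 and -5.48.

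For the other 8 genes no difference from Col-0 under water passed the threshold in any genotype. Counts of the 10 genes past it were 1 in erf104-ko (6.30% of all probe sets), 0 in mpk6-ko (0.00440%) and 0 in 35S::ERF104 (5.86%). At an unadjusted p below 0.05 there were 2 genes in erf104-ko (28.1%), 1 in mpk6-ko (15.7%) and 2 in 35S::ERF104 (28.9%). EXPA6, with the smallest error, differed from Col-0 by -0.55 (95% interval -1.11 to 0.01) in erf104-ko, -0.32 (-0.88 to 0.24) in mpk6-ko and -0.52 (-1.08 to 0.05) in 35S::ERF104. EXPA15, with one of the largest, had intervals from -1.26 to 2.35 in erf104-ko and from -1.68 to 1.92 in 35S::ERF104. Differences of these sizes could not be resolved with 3 arrays per group. The median probe set was itself -0.51, -0.35 and -0.48 below Col-0 in erf104-ko, mpk6-ko and 35S::ERF104, and 0.13, 0.14 and 0.12 above it among probe sets detected in at least 1 of the 2 groups. After centring, the number of the 10 genes with a negative difference went from 6 to 2 in erf104-ko, from 4 to 1 in mpk6-ko and from 6 to 2 in 35S::ERF104. No direction is therefore given for the 8 genes. Arrays of a genotype all lay below those of Col-0 for 2 genes in erf104-ko (18.9% of all probe sets), 0 in mpk6-ko (10.8%) and 1 in 35S::ERF104 (21.3%), and above for 1 (7.84%), 0 (3.10%) and 1 (9.34%). EXPA8 in erf104-ko was the only one of the 8 among these, at 228 or less against 229 or more (log2 difference -0.90 ± 0.67, adjusted p 0.371, limma).

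Whether a genotype changed the flg22 response was tested by the difference of the responses, in one fit of 23 arrays. These comparisons all share the Col-0 arrays. By limma none of the 10 genes, and none of the 22746 probe sets (0%), passed an adjusted p of 0.05 in erf104-ko, mpk6-ko or 35S::ERF104 against Col-0. At an unadjusted p below 0.05 there were 3 genes for erf104-ko (6.12% of all probe sets), 0 for mpk6-ko (7.10%) and 2 for 35S::ERF104 (6.73%). The methods' ANOVA at an unadjusted p below 0.05 and over 3-fold passed 518, 638 and 662 probe sets, and 1, 1 and 0 of the 10 genes. For EXPA5 the response in erf104-ko minus that in Col-0 was -1.43 ± 0.58 (adjusted p 0.810, limma), from a log2 change of -0.66 in the knockout and 0.77 in Col-0. For EXPA15 it was -2.83 ± 1.31 (adjusted p 0.810), a value that includes the Col-0 water array at 17.2, which sets the Col-0 change as given above. For EXPA8 it was 2.45 ± 1.01 (adjusted p 0.810), a value that includes a group called absent. For EXPA3 the response in 35S::ERF104 minus that in Col-0 was 2.20 ± 0.82 (adjusted p 0.695), and 1.02 without the Col-0 flg22 array at 23.7. For EXPA10 it was 1.17 ± 0.52 (adjusted p 0.729), a value that includes the 35S::ERF104 water array at 1253, beside 2954 and 4219. The log2 SD of EXPA10 in that group was 0.90. Each of these 5 values had an unadjusted 95% interval that left out 0, such as 0.09 to 2.24 for EXPA10, and none passed once adjusted over all probe sets. For EXPA6 the differences were 0.66 ± 0.41 in erf104-ko, 0.42 ± 0.39 in mpk6-ko and -0.11 ± 0.39 in 35S::ERF104.

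Across the 23 arrays the 10 genes did not move as one. Of 45 pairs the median correlation of log2 intensities was 0.0682, and it ran from -0.628 for EXPA1 with EXPA11 to 0.814 for EXPA4 with EXPA16. EXPA6 correlated with EXPA8 at 0.736 and with EXPA11 at 0.731, and EXPA8 with EXPA11 at 0.686. These are descriptions over arrays that share treatments, genotypes and labelling, and 23 arrays of 8 groups are not independent points. The 8 genes most like the mean profile of the 10, among 10343 probe sets detected in at least 4 of the 8 groups, were ABCB19, NPH3, HSL1, ARA12, BG_PPAP, scpl26, GH9C2 and AT2G24290. Their Pearson correlations over 23 arrays ran from 0.876 to 0.919, the highest for ABCB19, which encodes an auxin transporter. NPH3, a signalling protein of phototropism, followed at 0.914. The mean profile averages centred but unscaled log2 values, so genes that vary more between arrays weigh more in it.

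Other genes of the growing wall were read from lists that, like the 10 genes, were drawn up with earlier results known. Among the other 13 alpha-expansins none passed the test under flg22 in any genotype. Under water EXPA24 passed in erf104-ko against Col-0 (adjusted p 0.0228, limma) but was called absent in both groups, so no fold is given. Of 9 beta-expansin and expansin-like genes, relatives with the same fold, 0 passed in Col-0, 1 was lower in erf104-ko, 0 passed in mpk6-ko and 5 were lower in 35S::ERF104. Of all probe sets, 0.277%, 5.35%, 1.55% and 10.4% were lower in these genotypes, in the order given. EXPB3 was lower in erf104-ko by a log2 change of -2.06 ± 0.45 (adjusted p 0.0169, limma). In 35S::ERF104 EXLA1 had the largest change among those detected, -2.85 ± 0.25 (adjusted p 7.79e-05), beside EXPB1, EXPB3 and EXLB1 at -1.78, -1.52 and -1.76, while EXLA2 was called absent in both groups. Medians of the 9 genes were -1.39, -0.87, -0.57 and -1.54 in Col-0, erf104-ko, mpk6-ko and 35S::ERF104.

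The XTH genes encode enzymes that cut and rejoin xyloglucan, the glycan that ties cellulose fibrils together. Of 33 measured, 1 was lower in Col-0, 6 were lower and 2 higher in erf104-ko, 5 were lower in mpk6-ko and 11 lower in 35S::ERF104, against 0.277%, 5.35%, 1.55% and 10.4% of all probe sets lower. Their medians were -0.84, -1.13, -0.39 and -1.08. The share of all probe sets that were higher in erf104-ko is not given here, so nothing is read from the 2 higher genes. XTH6 passed in each genotype, at -2.15 ± 0.54 in Col-0 (adjusted p 0.0336, limma), -1.60 in erf104-ko, -1.73 in mpk6-ko and -2.30 ± 0.15 in 35S::ERF104 (adjusted p 1.34e-05). In erf104-ko XTH4 fell most, at -2.34 ± 0.26, followed by XTH31 at -2.26, while XTH23 and XTH30 rose by 2.31 and 1.60. In mpk6-ko XTH22 had a change of -1.73 ± 0.29, and in 35S::ERF104 XTH15 had -2.32 ± 0.49 (adjusted p 0.00726).

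Of 13 cellulose synthesis genes, 0 passed in Col-0, 3 were lower in erf104-ko (5.35% of all probe sets), 1 in mpk6-ko (1.55%) and 3 in 35S::ERF104 (10.4%). Their medians were -0.37, -0.62, -0.47 and -0.31. CESA5, a subunit of cellulose synthase, fell by 1.19 in erf104-ko and by 0.82 in 35S::ERF104 on the log2 scale, and CESA1 fell by 1.02 in erf104-ko. In mpk6-ko it was CESA2, at -1.08. In 35S::ERF104 CESA9 passed too but was called absent in both groups. CESA5 was also the only gene of that list past the threshold under water, 1.64 ± 0.40 higher in erf104-ko than in Col-0 (adjusted p 0.0229, limma), and EXPA5 differed in the same direction in that comparison.

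Of 4 plasma membrane proton pump genes, AHA2 was higher under flg22 in all 4 genotypes, at 2.35 ± 0.45 in Col-0 (adjusted p 0.00346, limma), 1.60 in erf104-ko, 1.79 in mpk6-ko and 1.63 in 35S::ERF104. AHA11 was lower in erf104-ko, mpk6-ko and 35S::ERF104, at -1.34, -1.64 and -1.77. In Col-0 the AHA11 change was of similar size, -1.72 ± 0.51, with all flg22 arrays below all water arrays. It did not pass there (adjusted p 0.101, limma). Of all probe sets, 5.35%, 1.55% and 10.4% were lower in erf104-ko, mpk6-ko and 35S::ERF104. In 35S::ERF104 7.98% were higher, and in Col-0 1.86% passed in either direction. The shares higher in erf104-ko and mpk6-ko are not given here, and nothing is read from the number of pumps that passed. Medians of the 4 pumps were -0.11, -0.03, -0.41 and 0.08. The plot of the wall gene groups sets these lists beside the 10 alpha-expansins.

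**Figure D4:**
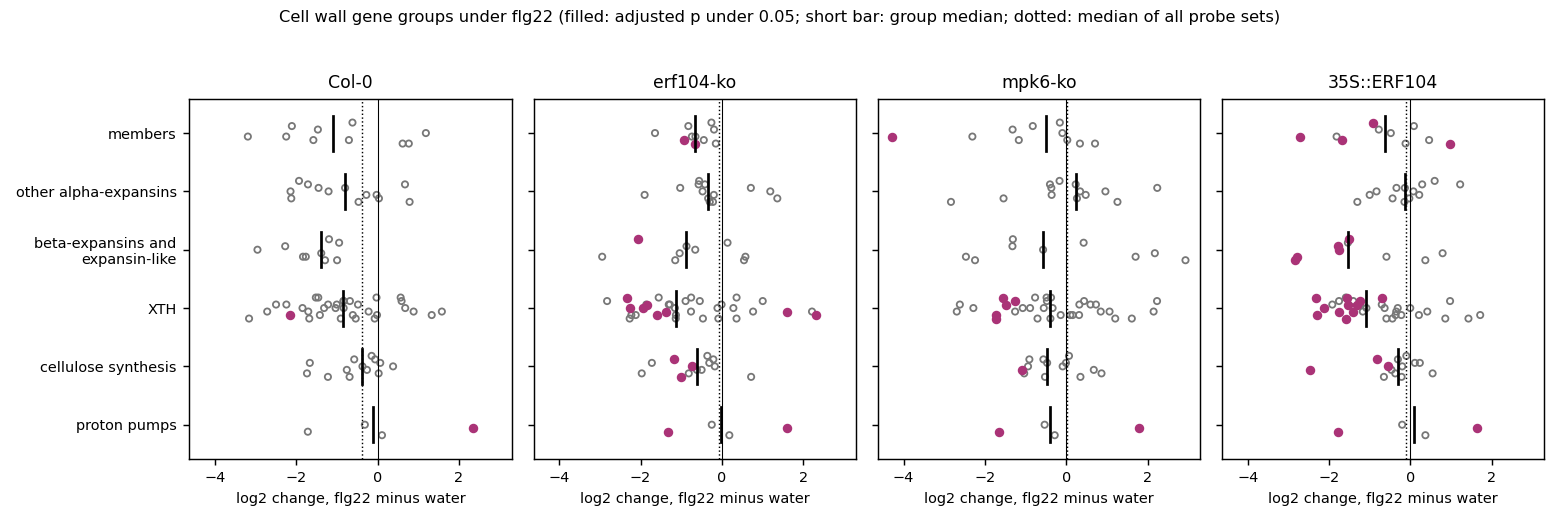
Fitted log2 changes, flg22 minus water, of the 10 alpha-expansins and of 5 other groups of wall genes in each genotype; filled points passed an adjusted p of 0.05, the short bar is the group median and the dotted line the median of all probe sets. Filled points lie on both sides of 0 among proton pumps and, in erf104-ko, among XTH genes. Fitted values of genes called absent are drawn too.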

How the data were processed

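Leaf RNA of 24 samples was hybridised to 1-colour Affymetrix arrays. The deposited series table holds intensities on a linear scale, 1 per probe set and array, which the authors scaled to a common trimmed mean (checked by trimming 2% at each end); per the labels they used Genespring GX 7.3.1. A second deposited table gives the authors' group means of intensity and present, marginal or absent calls (unit other) per group, not per array. Probe sets were assigned by the locus given there.

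Here the log2 intensity of 22746 probe sets (64 controls left out) was tested in R 4.3.3 by limma 3.58.1, using lmFit, then eBayes with its trend option, and Benjamini-Hochberg adjustment over all of them. Flg22 responses were fitted on the arrays of each genotype, and the other comparisons on all 23 arrays, 10 comparisons in all. The fits were tested on simulated data. They recovered the changes put in, and with unequal spread between groups the pooled fit made more false calls than with equal spread, so a fit with a weight per group was added after the data were seen. Where 1 group was called absent on every array, only a bound is given. No fold is given where the arrays overlap or the gene's own signal sets the bound on every array of that group.

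The 10 genes, the gene lists and the tests were chosen with earlier results of these data known. Genes were named by rule: all 10 genes; other expansins past the threshold; the 2 genes per wall list and direction with the largest change past it; the 8 genes most like the mean profile; ERF104, MPK6 and FRK1 as checks. XTH6 and AHA11, followed across genotypes, and the marker genes were named beside it. Alternatives covered the array left out, the scaling, the variance prior, a filter on calls, a floor of 50, the methods' ANOVA, the arrays in the fit and each array left out. No sequences are shown here.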

Additional observations from a re-analysis of the deposited data

Results flagged for a closer look

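The array left out, erf104-ko flg22 replicate 2, carried signal for 4 of the 10 genes above every water array of its genotype. On it EXPA1 read 1658, EXPA8 read 1001, EXPA15 read 422 and EXPA16 read 292. The 2 arrays used read 1727 and 877 for EXPA1, 131 and 107 for EXPA8, 98.8 and 22.1 for EXPA15, and 49.7 and 82.3 for EXPA16. EXPA6, in contrast, read 92.9 on it, below both. With this array included, the log2 change of EXPA8 in erf104-ko went from -0.74 to 0.29. Its correlation with every other array was 0.250 or lower.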

How the results depend on the processing

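Counts of probe sets past the threshold depended on the processing, as did the counts of the 10 genes; beyond a setting's own construction (fewer arrays or an added criterion), the cause was not tested. For flg22 in Col-0 (422 probe sets, 0 genes), centring gave 274 probe sets, quantile normalization 263, no variance trend 0, a floor of 50 gave 135, the methods' ANOVA 1205 (2 genes) unadjusted and 0 adjusted, and a fit of all arrays 2386 (3 genes). For erf104-ko (2209, 2 genes), all 24 arrays gave 0 (0 genes), no trend 0 (0), the floor 311 (0), the ANOVA 997 and 2 (0 genes each), all arrays in 1 fit 672 (0), and centring left 1 gene. For mpk6-ko (847, 1 gene), centring gave 356, no trend 0 (0), the floor 50 (0), the ANOVA 2 genes unadjusted and 1 probe set (0 genes) adjusted, 1 fit 1291 (3), and the filter on calls 2 genes. For 35S::ERF104 (4177, 4 genes), no trend gave 1740 (1), the floor 2 genes, the ANOVA 955 and 366 (1 gene each) and 1 fit 860 (1).

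Under water, erf104-ko (1434, 1 gene) gave 5 with 24 arrays, 2579 centred, 715 quantile normalized, 747 with no trend, 76 with a weight per group, 2904 with the floor, 1 by the adjusted ANOVA (0 genes, 2 unadjusted) and 74 for the 2 groups alone. EXPA5 there had an adjusted p of 0.212 by that ANOVA, at a log2 difference of 2.41. For mpk6-ko (1 probe set) the values were 2 centred, 2 with no trend, 0 with weights, 0 with the filter, 296 with the floor, 884 and 0 by ANOVA and 0 for the 2 groups alone. For 35S::ERF104 (1332, 0 genes) they were 26, 2639 (1 gene), 593, 720, 74, 618 with the filter, 2718, 2094 (1 gene) and 0 by ANOVA, and 32. Differences of responses (0 probe sets) gave 518 (1 gene), 638 (1) and 662 by the unadjusted ANOVA, and 14 in mpk6-ko with the floor.

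Leaving out 1 array gave 239 to 681 probe sets (0 to 1 gene) in Col-0, 396 to 2655 (0 to 2) in erf104-ko, 198 to 1296 (0 to 3) in mpk6-ko and 2986 to 3868 (2 to 4) in 35S::ERF104. Under water it gave 75 to 3725 (1 to 2), 0 to 1157 (0) and 12 to 4100 (0 to 1), and for the differences of responses 0 to 21, 0 to 38 and 0 to 33 (0 genes each). EXPA16 in mpk6-ko under water turned from -0.58 to 1.13 without replicate 3, and leaving out any 1 array gave -1.56 to 1.13. Deviations of same-numbered water and flg22 arrays correlated at -0.276 to 0.0686 in Col-0, so the numbers showed no pairing there. In mpk6-ko they correlated at 0.0584 to 0.361. Replicate 3 had the 0.361, against -0.191 at most with another number, and replicate 1 had 0.168 against 0.175. Whether replicate numbers pair the arrays of mpk6-ko was thus not settled. With the replicate block, Col-0 gave 1101 probe sets (1 gene), erf104-ko 1 gene, mpk6-ko 2053 (3 genes), and under water erf104-ko gave 2 genes and 35S::ERF104 1, since EXPA16 passed there with an adjusted p of 0.0262 and 0.0310.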
